A study of Saccharomyces cerevisiae with 16 samples.

Results

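The comparison set 3 samples taken while valine was being added against 4 taken without any nitrogen addition, 7 of the 15 samples of the series. Samples were chosen by their labels alone, and all 6248 features of the array were compared, with probes averaged per gene symbol. All 7 samples came from Saccharomyces cerevisiae EC1118, a commercial diploid wine yeast, grown on a synthetic grape must with glucose at 200 g/L and assimilable nitrogen at 100 mg/L, given as amino acids and ammonium chloride. Fermentation ran continuously through 4 tanks in series, and the nitrogen was used up in the third, where the cells were resting. The no-addition samples were taken from the third tank at steady state, with 164 g/L glucose left. Valine was then fed into the same tank to supply a further 100 mg/L of nitrogen, and the valine samples were taken once a new steady state had been reached. Another group of 3 samples received the same added nitrogen as ammonium and is used below to show where valine differed from it. Together with batch stationary-phase samples, the ammonium samples also entered the statistical fit described below. Samplings within a group were 24 h apart, and the labels give no residual glucose, cell density or growth rate for the valine samples.

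Valine is a branched-chain amino acid that yeast can use as a source of nitrogen. Extracellular amino acids are detected by the plasma membrane sensor Ssy1, which with Ptr3 and Ssy5 releases the transcription factors Stp1 and Stp2 to switch on permease genes. Inside the cell the branched-chain aminotransferases Bat1 and Bat2 move the amino group of valine to form glutamate, and the remaining keto acid can be decarboxylated and reduced in the Ehrlich pathway to the fusel alcohol isobutanol. Under nitrogen catabolite repression, genes for the use of poor nitrogen sources are kept low while a preferred source is present. Cells starved of nitrogen stop dividing, make few ribosomes, and express stress and reserve carbohydrate genes.

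RNA was measured on 1-colour arrays as log2 intensities. Every difference below is valine minus no addition on that log2 scale, with its standard error (SE) from limma. The fit held 4 groups, so an SE also reflects the spread of the ammonium and batch samples. For the urea permease gene DUR3 the SE was 0.25, with SDs of 0.08 with valine, 0.12 without addition and 0.79 with ammonium. A gene was called when its Benjamini-Hochberg adjusted p in limma was under 0.05 over all 6248 features. By that rule 4242 features were called, 67.9% of those tested, of which 2019 (32.3%) were higher with valine and 2223 (35.6%) lower. At least a 2-fold difference was reached by 407 of the higher features (6.51%) and 358 of the lower (5.73%), and at least 8-fold by 19 and 22. The highest and lowest values of the 2 groups did not overlap in 4351 features (69.6%). The median difference over all features was -0.01. For 1936 of the 2006 features that were not called the 95% confidence interval of the difference lay within 0.5 of 0 in either direction. With calls this common, a gene list in which the shares of members higher and lower lie near 32.3% and 35.6% is no different from the array as a whole.

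**Figure D1:**
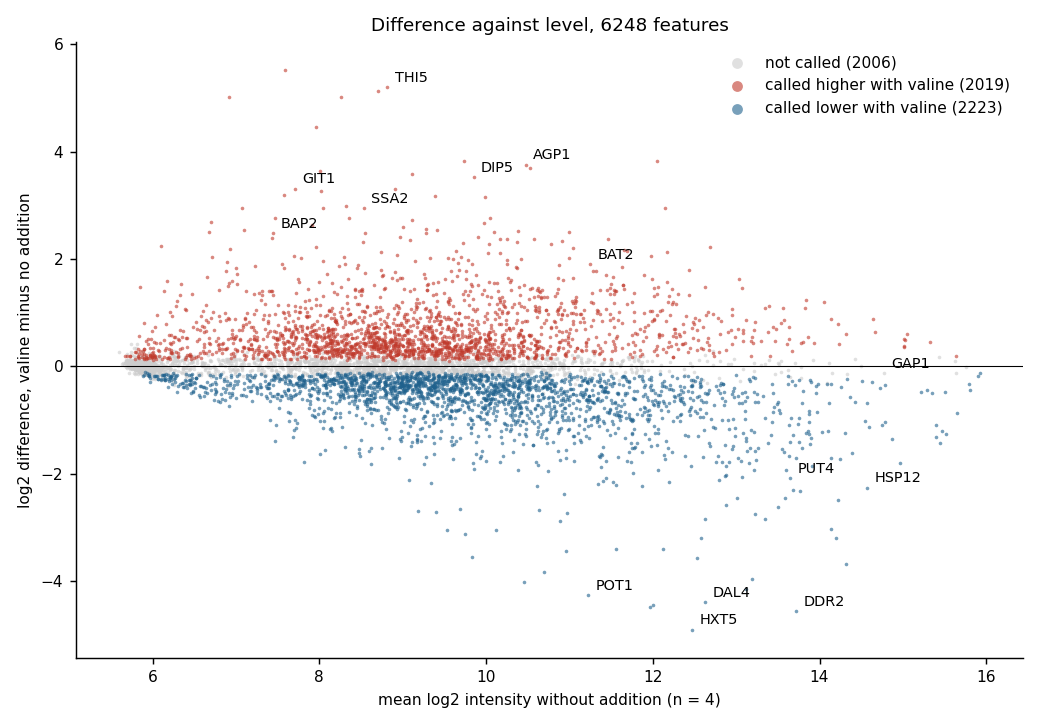
Each point is 1 of the 6248 features, with the mean log2 intensity of the 4 no-addition samples on the x axis and the log2 difference, valine minus no addition, on the y axis. Differences reach from -4.91 to 5.53, and the cloud narrows at the dimmest levels. Features called higher (2019) and lower (2223) include dim ones, such as MF(ALPHA)1 (higher) at 5.83 and IME1 (lower) at 6.14 without addition.

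The groups were far apart relative to their own spread. Over all features, pairs of valine samples differed with an SD of 0.115 to 0.189 and pairs of no-addition samples with an SD of 0.118 to 0.155, against 0.66 to 0.773 between a valine and a no-addition sample. Valine sample 3 stood somewhat apart from valine 1 and 2, which shared the other slide, and no-addition sample 4 stood apart from the other 3 in thiamine and sulfur genes, as described with those genes. Arrays lay on 2 slides, with valine 1 and 2 and no-addition 1 on slide 1 and valine 3 and no-addition 2, 3 and 4 on slide 2. Within slide 1 alone 2749 features were called and within slide 2 alone 3488, and of the 4242 calls 4240 had the same sign within slide 1 and 4236 within slide 2. The labels do not say whether the samplings of a group came from separate fermentations, so p-values measure the spread between samplings, which may be technical. They place the addition after the control sampling, so that addition and time cannot be told apart. Values were normalized to nearly the same distribution on every array, so a difference is relative to all transcripts, and in a culture a change in the number of cells that express a gene cannot be told apart from a change per cell. Of 9 genes specific to haploid cells, all 9 had group means from 5.91 to 7.28 with valine and from 5.83 to 7.26 without, in the lower part of a scale whose array minimum was 5.50 to 5.56 and median 9.09 to 9.10. MF(ALPHA)1 and HO were called higher and STE2, MFA1, MFA2 and GPA1 lower, with differences from -0.51 for GPA1 to 0.23 for MF(ALPHA)1. The 4 markers of sporulating cells had means from 5.98 to 6.80 with valine and from 6.02 to 7.25 without, with IME1 and NDT80 lower and SPS1 higher. The files used here hold no detection flags, so a level in the range of the haploid-specific genes, 5.83 to 7.28, is not shown to be above background. Of 305 other genes named here and called, 25 had a group mean in that range, 16 of them with valine and 14 without, and their differences may understate the change. They are ADH4, AGP2, ALP1, AQY1, ARO10, ATF2, BAP3, BNA2, CIT3, CLN2, CRC1, FMP45, HBT1, LEU9, MMP1, MUP1, NDE2, PHO84, POT1, SNO1, SNZ2, SPG4, TAT1, TAT2 and THI13.

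Genes for the uptake of amino acids were among the largest rises. AGP1, a broad-range amino acid permease, stood at 14.20, 14.33 and 14.16 in valine samples 1 to 3 and at 10.26, 10.60, 10.51 and 10.53 in no-addition samples 1 to 4. DIP5, the permease for glutamate and aspartate, was at 13.47, 13.36 and 13.31 with valine and at 9.85 ± 0.15 (SD, n = 4) without. BAP2, a branched-chain amino acid permease, was at 9.87, 9.91 and 9.98 with valine and between 7.44 and 7.45 in all 4 samples without it. In all 3 genes each valine sample lay more than 2 units above every no-addition sample. The differences were 3.76 ± 0.13 for AGP1, a 13.5-fold higher level, 3.53 ± 0.15 for DIP5 (11.5-fold) and 2.48 ± 0.11 for BAP2 (5.58-fold), with adjusted p values in limma of 2.35e-11, 1.1e-10 and 1.56e-10.

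Among all 20 amino acid permease genes, 10 were higher and 5 lower, with a median of 0.27. The sulfur amino acid permeases MMP1 (2.24 ± 0.15), MUP3 (1.91), MUP1 (1.66 ± 0.09) and SAM3 (0.73), which carry S-methylmethionine, methionine and S-adenosylmethionine, were higher. So were the histidine permease HIP1 (0.95), the branched-chain permease BAP3 (0.63 ± 0.06) and the tryptophan and tyrosine permease TAT2 (0.51). The permeases that were lower were PUT4 for proline (-2.09 ± 0.26), UGA4 for GABA (-1.75), ALP1 for arginine (-1.18), AGP2 for carnitine (-0.65) and TAT1 (-0.23). GAP1, the general amino acid permease, was at 14.50, 14.62 and 14.81 with valine and at 14.74, 14.64, 14.83 and 14.87 without. Its groups overlapped, and its difference of -0.13 ± 0.13 (95% interval -0.40 to 0.15) was not called. AGP3 (0.03), the lysine permease LYP1 (-0.02), the glutamine permease GNP1 (-0.06) and the arginine permease CAN1 (-0.22) were not called either.

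Transcripts of the sensor pathway that acts on these permease genes had small differences. Of the 6 genes, STP2 was higher (0.30) and PTR3 (-0.23) and GRR1 (-0.33), a ubiquitin ligase subunit of the pathway, were lower, while SSY1 at -0.13, SSY5 at 0.01 and STP1 at -0.12 were not called. The call of PTR3 ended without valine sample 2 (limma adjusted p = 0.0883). In the vacuole and in peptide uptake, 5 of 12 genes were higher and 5 lower (41.7% each). Over all features 32.3% were higher and 35.6% lower, so such a split is not particular to these genes. The oligopeptide transporter OPT1 rose by 1.01 ± 0.07, and the vacuolar exporters AVT6 (-0.63) and AVT3 (-0.45) fell.

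**Figure D2:**
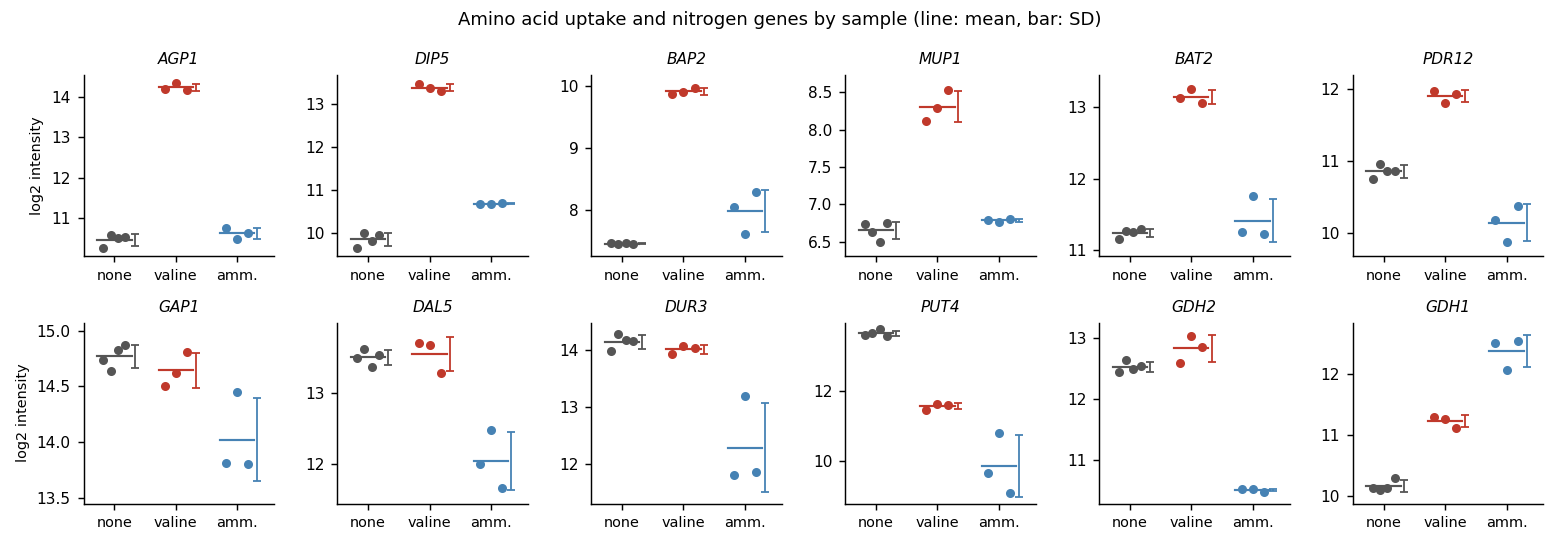
Log2 intensity of 12 uptake and nitrogen genes in each sample without addition (none, n = 4), with valine (n = 3) and with ammonium (amm., n = 3), where horizontal lines are means and bars 1 SD. AGP1, DIP5, BAP2, MUP1, BAT2 and PDR12 are highest in all 3 valine samples, whereas GAP1, DAL5 and DUR3 with valine overlap the samples without addition and PUT4 lies between the other groups.

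The step that takes nitrogen from valine was also higher. BAT2, the cytosolic branched-chain aminotransferase, was at 13.13, 13.25 and 13.06 with valine and at 11.16, 11.27, 11.26 and 11.29 without, a difference of 1.90 ± 0.11 (3.73-fold). BAT1, the mitochondrial enzyme, was at 14.33, 14.24 and 14.34 against 12.11, 12.10, 12.21 and 12.28, a difference of 2.13 ± 0.07 (4.37-fold). Neither gene overlapped between the groups. PDR12, an efflux pump for weak acids that include the fusel acids, was at 11.98, 11.81 and 11.94 with valine and at 10.75, 10.97, 10.87 and 10.87 without, a difference of 1.04 ± 0.11 (2.06-fold, limma adjusted p = 6.22e-07). Its activator WAR1 was lower (-0.36).

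The Ehrlich pathway as a whole did not move one way: 10 of its 25 genes were higher (40.0%) and 11 lower (44.0%), with a median of -0.07. Over all features 32.3% were higher and 35.6% lower, so such a split is not particular to the pathway. Of the decarboxylases, PDC5 was higher, at 15.09, 15.07 and 15.11 with valine against 11.78, 11.92, 11.75 and 13.13 without. No-addition sample 4 was the highest of its group in PDC5, and the difference was 2.95 ± 0.25 with it and 3.27 without it. The main pyruvate decarboxylase PDC1, close to the top of the scale at 15.52 ± 0.08 with valine, was not called (-0.12 ± 0.08). ARO10, the decarboxylase with the broadest keto acid range, was lower in every valine sample, at 7.49, 7.24 and 6.92 against 7.99, 7.98, 8.03 and 7.97, and fell by 0.78 ± 0.10. PDC6 fell by 1.55. ARO8, an aromatic aminotransferase, rose by 2.56 ± 0.14, whereas its partner ARO9 (-0.53) and the activator of ARO9, ARO80 (-1.04), fell.

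Alcohol and aldehyde dehydrogenases of the pathway went both ways. The alcohol dehydrogenases ADH5 (1.64 ± 0.09), ADH7 (0.93 ± 0.14) and ADH4 (0.36) and the mitochondrial aldehyde dehydrogenase ALD5 (2.02 ± 0.12) rose. The aldehyde dehydrogenases ALD3 (-3.03 ± 0.17), ALD4 (-1.78), ALD2 (-1.72) and ALD6 (-0.57) and the formaldehyde and alcohol dehydrogenase SFA1 (-0.46) fell. ADH7 was at 9.45, 9.15 and 8.96 with valine and between 8.24 and 8.28 in the 4 samples without. ADH6 at 0.31, ADH2 at -0.04 and ADH3 at -0.07 were not called. In ester formation, which turns fusel alcohols and acids into aroma compounds, the alcohol acetyltransferase ATF2 was at 9.10 ± 0.10 (SD, n = 3) with valine against 7.23 ± 0.13 (n = 4) without, a rise of 1.87 ± 0.10. The other members called were lower, among them the ethyl ester synthase EEB1 (-0.50) and the acetyl-CoA synthetase ACS1 (-0.67), with ATF1 at -0.15 and the esterase IAH1 at -0.20. EHT1 at 0.27 and ACS2 at -0.11 were not called. The ATF1 call ended without valine sample 2 or 3 or no-addition sample 2 or 3 (limma adjusted p = 0.0554 to 0.119), and that of IAH1 without valine sample 1 or 2 or no-addition sample 1, 2 or 4 (0.066 to 0.183). Without valine sample 3 EHT1 was called higher, at 0.44.

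Targets of nitrogen catabolite repression were mostly lower with valine, but not as a block. Of 32 targets measured, 22 were lower and 4 higher, with a median of -0.50. The allantoin permease DAL4 was at 8.21, 8.18 and 8.32 with valine and at 12.75, 12.70, 12.40 and 12.67 without, so it fell by 4.39 ± 0.26 (21.0-fold). The allantoicase gene DAL2 (-2.22), the allantoinase gene DAL1 (-1.85), PUT4 (-2.09) and UGA4 (-1.75) fell too. So did PUT1 (-1.04) and PUT2 (-1.35) of proline breakdown and UGA1 (-0.51) and UGA2 (-1.01) of GABA breakdown. PUT4 stood at 11.46, 11.62 and 11.59 with valine and at 13.59, 13.66, 13.76 and 13.58 without.

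Other targets of the same control were not called. The allantoate and dipeptide permease DAL5 was at 13.71, 13.68 and 13.28 with valine and at 13.49, 13.63, 13.37 and 13.54 without, and the urea permease DUR3 at 13.93, 14.08 and 14.04 against 13.99, 14.29, 14.18 and 14.16. Both overlapped between groups and were not called, with differences of 0.05 ± 0.16 (95% interval -0.30 to 0.40) and -0.13 ± 0.25 (-0.67 to 0.40). GAT1, GZF3 and MEP3 at 0.14, -0.06 and 0.06 were not called either. The higher targets were AGP1, the vacuolar carboxypeptidase CPS1 (2.15 ± 0.16), the glutamine synthetase GLN1 (0.64 ± 0.10) and the glutamate dehydrogenase GDH2 (0.30 ± 0.09). The ammonium permeases MEP2 (-0.68 ± 0.07) and MEP1 (-0.59) fell.

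Of the GATA factors and partners that carry out this control, the repressor DAL80 fell by 0.66 ± 0.11, DAL82 by 0.54, and URE2, which holds the activators in the cytoplasm, rose by 0.48, as did DAL81 by 0.22. The activator GLN3 at 0.03 was not called. The enzymes that handle ammonium and glutamate rose in 7 of 9 cases. The alanine aminotransferase ALT1 (2.49 ± 0.08), the asparagine synthetases ASN2 (1.38) and ASN1 (1.31), the anabolic glutamate dehydrogenase GDH1 (1.07 ± 0.10) and AAT2 (0.73) were among them. Glutamate synthase GLT1 (-0.33) and the second anabolic dehydrogenase GDH3 (-1.63) fell. GDH2, which releases ammonium from glutamate, was at 12.60, 13.04 and 12.86 with valine and at 12.45, 12.64, 12.49 and 12.54 without, and its groups overlapped. Without valine sample 2 its difference was 0.20.

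Genes for the synthesis of valine and the other branched-chain amino acids rose. All 13 genes of the list were called higher, with a median of 1.86. ILV5, the reductoisomerase that valine and isoleucine synthesis share, was at 12.75, 12.93 and 12.61 with valine and at 10.66, 10.89, 10.79 and 11.14 without, and rose by 1.89 ± 0.24 (3.71-fold). ILV3, the next enzyme, rose by 2.28 ± 0.10, and the acetolactate synthase subunits ILV2 (0.90 ± 0.10) and ILV6 (0.86) rose less. On the leucine branch, the isopropylmalate synthases LEU9 (2.53 ± 0.15) and LEU4 (1.86 ± 0.09) and the carrier OAC1 (1.89) rose, with smaller values for LEU2 (0.83), the regulator LEU3 (0.55) and LEU1 (0.28 ± 0.09). The call of LEU1 ended without valine sample 3 (0.22, limma adjusted p = 0.0758). ILV1, the threonine deaminase that begins isoleucine synthesis, rose by 1.03. Pantothenate synthesis, which starts from the keto acid of valine, rose in PAN6 (1.43 ± 0.07), PAN5 (0.95) and FMS1 (0.71), and ECM31 at 0.16 was not called. Over the 10 genes of pantothenate and coenzyme A 6 were higher and 2, CAB4 (-0.20) and CAB5 (-0.75), lower. The CAB4 call ended without valine sample 3 or no-addition sample 1 or 3 (limma adjusted p = 0.0559 to 0.132).

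The other amino acid pathways rose with it. For lysine 8 of 9 genes were higher (median 1.23), led by LYS9 (1.66 ± 0.08), with LYS5 (-0.47) lower. Arginine synthesis was higher in 7 of 8 genes (median 1.33), such as the acetylornithine aminotransferase ARG8 (2.62 ± 0.23) and the argininosuccinate synthetase ARG1 (2.22 ± 0.09), and CPA1 at -0.16 was not called. All 7 histidine genes (median 1.27) and 11 of 12 aromatic genes (median 1.25) were higher. HIS4 (2.28), HIS1 (2.12), ARO4 (2.42 ± 0.11) and TRP2 (1.53) were examples, and TRP1 fell by 0.34, or by 0.22 without valine sample 1. Serine, threonine and glycine synthesis was higher in 9 of 11 genes, among them SER33 (1.98 ± 0.12), SER3 (1.52) and THR1 (1.49), while CHA1, the catabolic serine and threonine deaminase, fell by 0.47. GCN4, the activator of these pathways, was at 13.07, 13.13 and 13.13 with valine against 12.91, 13.02, 12.98 and 12.98 without. Its groups did not overlap, but its difference of 0.14 ± 0.08 (95% interval -0.03 to 0.31) was not called. PCL5, a cyclin that marks Gcn4 for breakdown, rose by 1.18 ± 0.14.

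Sulfur assimilation was higher in every one of its 29 genes, 25 of them at least 2-fold, with a median of 2.24. MET17, the homocysteine synthase, was at 14.21, 14.26 and 14.17 with valine and at 10.18, 10.40, 10.36 and 11.15 without. The sulfate activation genes MET3 and MET14 were at 11.66, 11.65 and 11.61 and at 12.61, 12.67 and 12.80 with valine, and at 7.70, 7.87, 7.92 and 8.54 and at 8.89, 8.92, 8.93 and 9.69 without. In all 3 genes no-addition sample 4 was the highest of its group but lay far below the valine samples. The differences were 3.69 ± 0.18 for MET17, 3.63 ± 0.19 for MET3 and 3.59 ± 0.20 for MET14, and without no-addition sample 4 they were 3.90, 3.81 and 3.78. The sulfite reductase subunits MET10 (3.18 ± 0.13) and MET5 (2.77), the sulfate permease SUL2 (2.99 ± 0.14), the cystathionine gamma-lyase CYS3 (2.66) and the beta-lyases STR3 (2.76 ± 0.11) and IRC7 (2.49 ± 0.15) followed. The smallest rises were in STR2 (0.52) and MET7 (0.39).

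Purine and one-carbon genes rose in part. Of 15 purine synthesis genes 12 were higher, with ADE12 (1.69 ± 0.13), ADE17 (1.45) and ADE13 (1.42) foremost, and ADE16 (-0.63) and PRS2 (-0.37) were lower. The cytosolic one-carbon enzymes SHM2 (1.48 ± 0.06) and ADE3 (1.35) and the mitochondrial MIS1 (1.30) rose, and LPD1, a subunit that glycine cleavage shares with the dehydrogenases of the TCA cycle, fell by 0.65. Of 12 purine salvage and guanine nucleotide genes 5 were higher and 5 lower (41.7% each, against 32.3% and 35.6% of all features). IMD2 (1.48), IMD3 (1.34) and IMD4 (1.43) of guanine nucleotide synthesis were among the higher ones, and the guanine deaminase GUD1 fell by 1.46.

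Genes for the vitamin thiamine held the largest rises of the array. THI5, 1 of a set of nearly identical genes for the pyrimidine moiety of thiamine, was at 14.41, 13.93 and 13.71 with valine and at 8.25, 8.08, 8.13 and 10.80 without. THI4, for the thiazole moiety, was at 15.90, 15.83 and 15.92 against 11.46, 11.93, 11.62 and 13.20, at the top of the array's range with valine. No-addition sample 4 was well above samples 1 to 3 in both, and the valine samples lay above all 4. The differences were 5.20 ± 0.49 for THI5 and 3.83 ± 0.29 for THI4, the latter possibly an underestimate since array maxima were 15.82 to 15.96, or 5.86 and 4.21 without no-addition sample 4. THI11 (5.53 ± 0.51), THI12 (5.13 ± 0.46) and THI13 (5.02 ± 0.40) are so alike to THI5 that their probes may share signal.

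In all, 18 of 20 thiamine genes were higher, with a median of 2.70, or 2.81 without no-addition sample 4. The list includes THI22 (5.02 ± 0.32), the thiamine-repressed acid phosphatase PHO3 (4.46 ± 0.26), PET18 (3.83 ± 0.20), THI21 (3.31) and the carriers THI72 (3.19) and THI7 (1.03). The activators THI2 (1.69) and THI3 (0.83) rose too, and PDC2 at -0.10 and NRT1 at 0.03 were not called. All 10 vitamin B6 genes rose (median 0.93), led by the pyridoxal phosphate synthase genes SNZ3 (1.82 ± 0.11), SNZ2 (1.71 ± 0.10) and SNZ1 (1.65 ± 0.07). SNZ2 and SNZ3 are close copies. All 6 biotin genes rose as well (median 1.42), such as the transporter BIO5 (2.48 ± 0.14), BIO3 (1.83) and BIO4 (1.77). Of 15 NAD genes 7 were higher (46.7%, against 32.3% of all features) and 4 lower (26.7%, against 35.6%). The nucleoside hydrolase URH1 (1.64) and BNA3 (1.35) were higher and the nicotinamidase PNC1 (-1.05) and BNA2 (-0.55) lower.

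**Figure D3:**
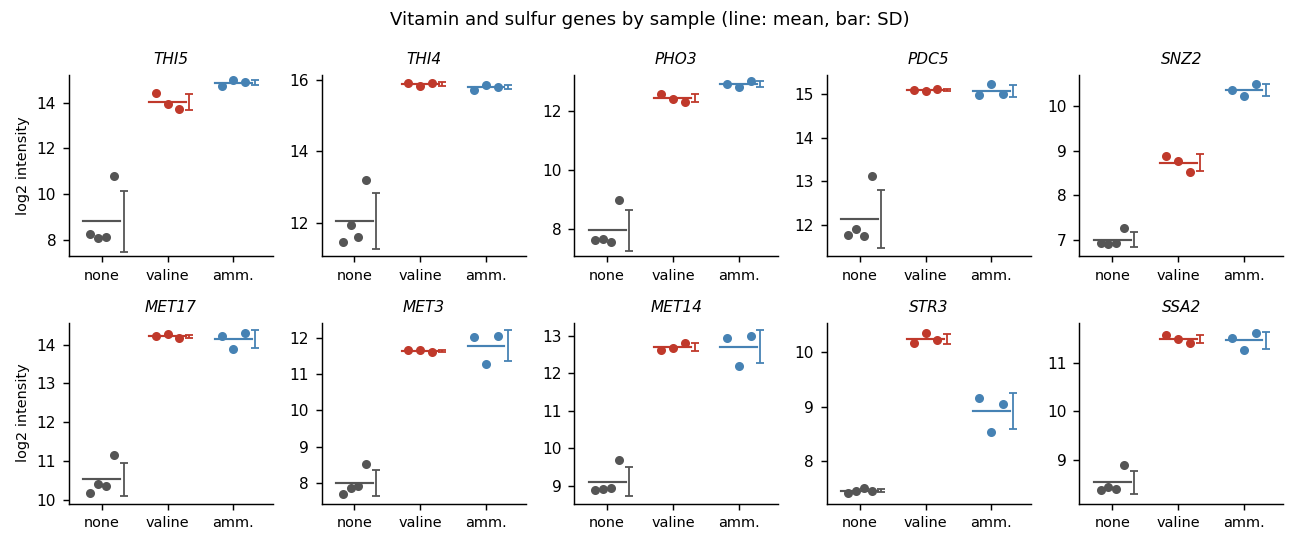
Log2 intensity of 10 thiamine, vitamin B6, sulfur and chaperone genes in each sample without addition (none, n = 4), with valine (n = 3) and with ammonium (amm., n = 3), with means as lines and SDs as bars. No-addition sample 4 lies above the other 3 in all but STR3, and each valine sample lies above all no-addition samples in all 10 genes.

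Genes of the translation machinery rose. Of 134 cytosolic ribosomal protein genes 128 were higher, 54 at least 2-fold, with a median of 0.93. RPS9A (1.79 ± 0.11), RPL17B (1.64 ± 0.11), RPS28B (1.56) and RPL6B (1.56) had the largest rises. RPS30B fell by 0.46 ± 0.18, and RPL29 (0.28), RPL7B (0.17), RPL22B (0.12), RPS27A (0.11) and RPS30A (0.02) were not called. The call of RPS30B ended without valine sample 1 or 2 or no-addition sample 1, 2 or 3 (limma adjusted p = 0.0536 to 0.161), and its value within slide 2 was 0.05. Without valine sample 2, RPL7B and RPL22B were called higher (0.26 and 0.21). Many of these genes come in near-identical pairs whose probes may share signal. Of 19 tRNA synthetase genes 18 were higher (median 1.05), with the leucyl enzyme CDC60 (2.07 ± 0.18) first and the valyl enzyme VAS1 at 0.85 ± 0.05. Of 37 translation factors 34 were higher (median 0.61), including PRT1 (1.33) and TEF4 (1.17), and HYP2 (-1.25 ± 0.09), CAM1 (-0.49) and TIF4632 (-0.12) were lower. HYP2 and ANB1 encode the aerobic and the hypoxic form of eIF5A, and ANB1 rose by 0.78. The call of TIF4632 ended without valine sample 3 or without any 1 of the 4 no-addition samples (limma adjusted p = 0.0547 to 0.215).

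Ribosome assembly factors rose in part. Of 113 genes 67 were higher and 8 lower, with a median of 0.34, and 4, namely RRP3 (1.25), UTP21 (1.23), GAR1 (1.21) and UTP9 (1.10), reached 2-fold. RIO1 (-0.52), NSR1 (-0.44), FAF1 (-0.37) and DHR2 (-0.25) were the lowest. Without valine sample 3 the difference of NSR1 was -0.28 and was not called. Subunits and factors of RNA polymerases I and III were higher in 19 of 34 cases, with the polymerase I subunits RPA135 (1.10), RPA49 (1.03) and RPA190 (1.01) at the top. Among regulators of ribosomal genes the repressor DOT6 fell by 0.79, RAP1 rose by 0.46, and IFH1 at 0.02 was not called. Mitochondrial ribosomal protein genes went the other way. Of 53 such genes 50 were lower and 0 higher, with a median of -0.51, and MRPS16 (-1.03) and MRPS8 (-1.01) had the largest falls.

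Genes of division rose. PCL1, a G1 cyclin, was at 10.26, 10.17 and 10.13 with valine and at 7.85, 7.91, 8.00 and 8.10 without, and RNR1, the large subunit of ribonucleotide reductase, at 12.89, 12.84 and 13.00 against 10.29, 10.37, 10.25 and 10.63. The differences were 2.22 ± 0.13 and 2.53 ± 0.08, and neither gene overlapped between groups. Of 21 cyclin and mitosis genes 16 were higher (median 0.55), among them CLB1 (1.73), CLN2 (1.59) and CLN1 (1.51), and CLN3 (-0.28) was lower. Of 27 genes of DNA replication, 24 rose and 0 fell (median 0.59), with TOS4 (2.01), the sliding clamp POL30 (1.63) and CDC21 (1.44) after RNR1, while MCM4 at 0.00 and MCM6 at 0.02 were not called. Of 15 genes of cytokinesis and the daughter cell 12 were higher, such as BUD4 (1.02). Of 32 cell wall genes 17 were higher (53.1%, against 32.3% of all features) and 11 lower (34.4%, against 35.6%), with a median of 0.28. The glucanase-family genes SCW10 (3.26 ± 0.12) and UTR2 (2.03) and the mannoprotein CIS3 (2.05) rose, and PIR3 (-1.99), SPI1 (-1.60) and SED1 (-1.10) fell.

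Genes of starvation and stress fell the furthest. HXT5, a hexose transporter of slowly growing cells, was at 7.30, 7.39 and 8.00 with valine and at 12.62, 12.39, 12.62 and 12.27 without, and fell by 4.91 ± 0.15 (30.1-fold). DDR2, a general stress gene, was at 8.80, 8.83 and 9.85 with valine and at 14.06, 13.58, 13.73 and 13.51 without, and SIP18, a hydrophilin induced by drying, at 7.26, 7.32 and 7.85 against 12.18, 11.83, 12.05 and 11.81. Valine sample 3 was the highest of the valine samples in all 3 genes and still lay far below every no-addition sample. DDR2 fell by 4.56 ± 0.39 and SIP18 fell by 4.49 ± 0.23, and without valine sample 3 the differences were -4.91 and -4.68.

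Of 37 general stress genes 35 were lower, 25 at least 2-fold, with a median of -1.34. The higher members were SNZ1 and SNO1 (0.80), which serve vitamin B6 synthesis. SPG4 (-4.02 ± 0.14), the minor phosphogluconate dehydrogenase GND2 (-3.96 ± 0.11), FMP45 (-3.05), the catalase CTT1 (-2.49) and the membrane-associated stress protein HSP12 (-2.26 ± 0.09) fell, as did the kinase RIM15 (-0.68) and the activators MSN4 (-0.79) and GIS1 (-0.92). Other large falls were in HBT1 (-3.83 ± 0.18), FMP16 (-3.69 ± 0.25), the spore aquaporin AQY1 (-3.55 ± 0.11) and the second proton pump gene PMA2 (-3.41 ± 0.12). With valine SPG4 (6.44), FMP45 (7.07), HBT1 (6.87) and AQY1 (6.28) had mean levels not shown to be above background, so their falls may be larger than these values. Antioxidant genes were lower in 20 of 26 cases (median -0.86), and the glutathione synthesis genes GSH1 (1.40) and GSH2 (0.16) were higher with OYE2 (0.71), GTT2 (0.62) and TRR1 (0.19). The TRR1 call ended without valine sample 1 (limma adjusted p = 0.0734).

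The list of 29 chaperones held 9 higher genes (31.0%, against 32.3% of all features) and 19 lower ones (65.5%, against 35.6%), with a median of -0.46. Among them the ribosome-associated chaperones SSB1 (1.42 ± 0.15) and SSB2 (1.40 ± 0.11), the cytosolic SSA2 (2.95 ± 0.13) and the exchange factor SSE1 (1.29) rose. SSA3 (-3.41 ± 0.14), SSA4 (-1.22), HSP104 (-1.15) and HSP26 (-0.96 ± 0.16), which are induced by stress, fell. SSA2 was at 11.56, 11.48 and 11.40 with valine and at 8.39, 8.45, 8.41 and 8.89 without, and no-addition sample 4 was the highest of its group.

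Genes of reserve carbohydrates fell too. In trehalose metabolism 7 of 8 genes were lower (median -0.88), TPS2 (-1.39), TPS1 (-1.24) and TSL1 (-0.86 ± 0.17) of synthesis as well as NTH1 (-0.91), NTH2 (-0.90) and ATH1 (-0.87) of breakdown, and MAL11 at -0.05 was not called. In glycogen metabolism 14 of 16 genes were lower (median -1.05), with SGA1 (-1.91), the phosphorylase GPH1 (-1.80) and GIP2 (-1.78) lowest. The phosphoglucomutase PGM1 rose by 1.00 while its stress-induced partner PGM2 fell by 1.58.

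Respiratory genes fell. All 38 nuclear genes of the respiratory chain and ATP synthase fell, 24 at least 2-fold, with a median of -1.24. CYC1, cytochrome c, was at 8.23, 8.35 and 8.11 with valine and at 10.03, 10.01, 9.80 and 10.13 without, and fell by 1.77 ± 0.18. NDE2 (-2.17), CYT1 (-2.15), COX7 (-2.13) and the activator subunit HAP4 (-1.79) were among the lowest. Of 8 genes encoded in the mitochondrial genome 6 were lower, such as VAR1 (-1.22) and COX2 (-1.08). The groups did not overlap in 3 of the 8, against 69.6% of all features. COB (-0.40), COX1 (-0.60) and COX3 (-0.72) were called lower although their groups overlapped. ATP6 at 0.01 and ATP8 at -0.18 were not called, the latter being called lower without valine sample 3 (-0.34). In the TCA cycle 15 of 19 genes were lower (median -0.81), with MDH1 (-1.53) and SDH2 (-1.48) lowest, and IDP1 (1.11), PYC2 (0.73), PYC1 (0.21) and CIT3 (0.18) were higher. The CIT3 call ended without valine sample 1 or 2 or no-addition sample 2 or 4 (limma adjusted p = 0.0815 to 0.129). In the glyoxylate and gluconeogenesis list CIT2 (2.01 ± 0.34), the peroxisomal citrate synthase, and the D-lactate dehydrogenase DLD3 (3.14 ± 0.22) rose against 14 of 17 that fell.

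Fermentation genes had no common direction. Of 26 glycolysis and fermentation genes 8 were higher (30.8%) and 11 lower (42.3%), with a median of -0.07. These shares are near those of all features (32.3% and 35.6%). Several of the genes, such as PDC1, lie near the top of the scale. The hexokinase HXK2 (1.28 ± 0.11) and the enolases ENO2 (0.88) and ENO1 (0.52) rose beside PDC5, the kinase PFK26 (-0.73) fell, and TPI1 at -0.02, PFK27 at -0.02, TDH2 at 0.09 and TDH1 at 0.09 were not called. Among hexose transporters and sensors HXT6 (-1.72 ± 0.18) and HXT7 (-1.61 ± 0.19), near-identical high-affinity transporters, fell after HXT5, and the low-affinity HXT1 (-0.50 ± 0.07) and HXT3 (-0.48) by less. In the pentose phosphate pathway the minor isoenzymes fell and the main ones rose: TKL2 fell by 3.44 ± 0.15 and TKL1 rose by 0.99 ± 0.10, GND2 fell by 3.96 and GND1 rose by 0.78 ± 0.09, NQM1 fell by 2.75 and TAL1 rose by 0.70, SOL4 fell by 2.46 and SOL3 rose by 0.29. ZWF1, which starts the pathway, fell by 0.64. Of 11 glycerol genes 5 were lower (45.5%, against 35.6% of all features) and 2 higher (18.2%, against 32.3%). GUT2 (-1.83), GCY1 (-1.80), GPD1 (-0.69) and GPP1 (-0.67) were among the lower ones.

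**Figure D4:**
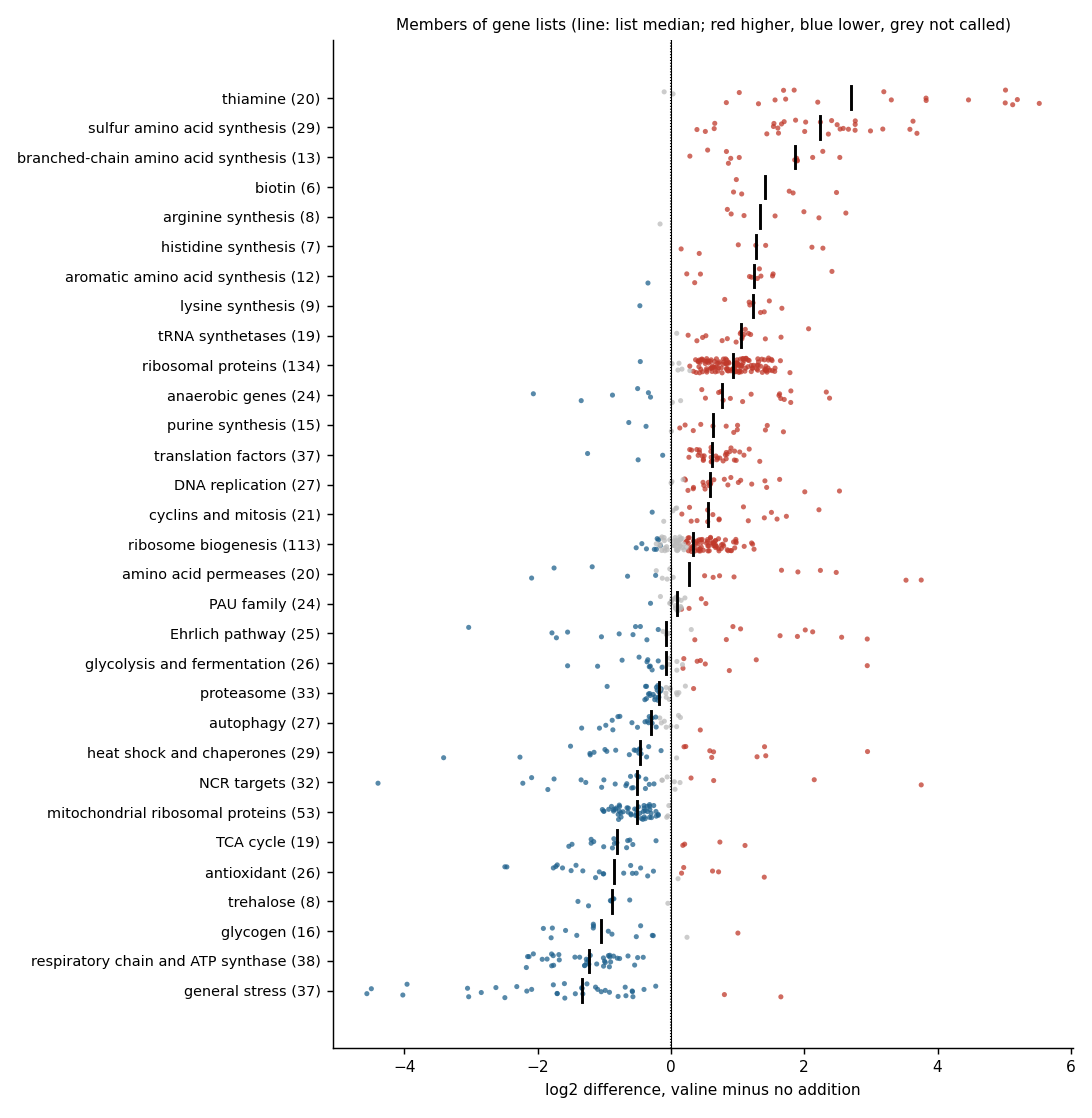
Each point is a gene of the list named at the left (number measured in brackets), placed by its log2 difference, valine minus no addition, and coloured red where called higher, blue where called lower and grey where not called. Black bars mark list medians, from 2.70 for thiamine to -1.34 for general stress, and the dotted line is the median of all features.

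Genes of anaerobic growth were mostly higher. Of 24 anaerobic genes 16 were higher and 6 lower (median 0.77). The mannoproteins TIR4 (2.38 ± 0.30), TIR2 (2.33 ± 0.10) and TIR3 (1.80), the sterol importer AUS1 (1.80) and the haem synthesis gene HEM13 (1.70) rose, and their repressor ROX1 fell by 1.35 ± 0.18. CYC7 (-2.06) and the desaturase OLE1 (-0.88) fell as well. The PAU family of seripauperins moved little, with PAU11 (0.52), PAU8 (0.46), PAU12 (0.27) and PAU7 (0.16) higher, PAU23 (-0.31) lower and 19 of 24 not called, and the copies are so alike that their probes may share signal. The PAU7 call ended without valine sample 3 (limma adjusted p = 0.0568).

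Lipid genes were divided. Of 28 ergosterol genes 16 were lower, among them ARE2 (-1.31), ERG5 (-1.30) and HMG1 (-1.26), and UPC2 (0.89), NCP1 (0.45) and ERG4 (0.33) were higher. Of 16 fatty acid synthesis genes 6 were higher and 7 lower (median -0.10), shares near those of all features. The elongases ELO3 (2.95 ± 0.11) and FEN1 (1.83 ± 0.10) were the highest, while FAS2 at 0.01 was not called and FAS1 was at -0.25. Beta-oxidation and peroxisome genes were lower in 32 of 39 cases (median -0.49). POT1, the peroxisomal thiolase, was at 6.94, 6.86 and 7.06 with valine and at 11.24, 11.19, 11.37 and 11.10 without, and fell by 4.27 ± 0.11, and CRC1 (-1.67) and FOX2 (-1.44) fell too. POT1 and CRC1 with valine were at levels not shown to be above background, so their falls may be larger than these values. GIT1, the glycerophosphoinositol permease, was at 11.20, 11.16 and 10.68 with valine and at 7.64, 7.70, 7.78 and 7.72 without, a rise of 3.30 ± 0.21 (9.88-fold), and INO1, for inositol synthesis, rose by 1.90 ± 0.08.

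The high-affinity phosphate permease PHO84 (2.95 ± 0.14) and the acid phosphatase PHO11 (1.98) rose, whereas PHO89 at -0.02, PHO81 at -0.06, VTC1 at 0.02 and PHO91 at 0.03 were not called. The iron regulon held 9 higher and 10 lower genes of 30 (median -0.02), shares no larger than those of all features. Transcripts of protein breakdown genes were mostly lower. Autophagy genes were lower in 18 of 27 cases (median -0.30), with ATG8 (-1.34 ± 0.11) and ATG2 (-1.07) lowest and ATG22 (0.44), a vacuolar amino acid exporter, higher. The call of ATG22 ended without valine sample 1 or 2 or no-addition sample 1, 2 or 4 (limma adjusted p = 0.0541 to 0.128). The vacuolar protease inhibitors PAI3 (-2.86 ± 0.11) and PBI2 (-1.93) fell, and CPS1 was the 1 vacuolar protease gene that rose. Proteasome genes were lower in 20 of 33 cases by small amounts (median -0.18), and their activator RPN4 fell by 0.96 ± 0.09. Of 40 meiosis and sporulation genes 9 were higher (22.5%, against 32.3% of all features) and 14 lower (35.0%, against 35.6%). SPS100 (-2.89 ± 0.20) and SGA1 were lowest. IME1, the master inducer, stood at 5.98 ± 0.04 with valine and 6.14 ± 0.11 without, both near the array minimum.

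The ammonium samples, which received the same amount of added nitrogen, allow valine to be compared with another nitrogen source. The direct test, valine minus ammonium in the same limma fit of all groups, called 1023 features (16.4%), 549 higher with valine (8.79%) and 474 lower (7.59%). The count was 664 without valine sample 1 and 501 without valine sample 2, 686 with slide as a block, 38 within slide 1 (valine 1 and 2 against 1 ammonium array) and 228 within slide 2. With array weights it was 2471. Differences of valine and of ammonium from the no-addition samples share those samples, so they are given side by side and only the direct difference is tested. AGP1 was at 10.75, 10.50 and 10.63 in ammonium samples 1 to 3, where they overlapped the samples without addition, and its valine minus ammonium difference was 3.60 ± 0.14 (limma adjusted p = 1.37e-09). DIP5 was at 10.67, 10.67 and 10.69 with ammonium, between the other groups, with a direct difference of 2.70 ± 0.16. BAP2 was at 8.04, 7.60 and 8.28 (direct difference 1.95 ± 0.12) and MUP1 at 6.79, 6.76 and 6.80 (1.53 ± 0.10).

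BAT2 was at 11.26, 11.76 and 11.22 with ammonium, where its samples overlapped those without addition, and the direct difference was 1.73 ± 0.11 (limma adjusted p = 2.13e-07). BAT1 differed from the no-addition samples by 2.13 with valine and by 1.83 with ammonium, and its direct difference was 0.29 ± 0.07, a call that ended without valine sample 1 or ammonium sample 2 (limma adjusted p = 0.053 and 0.062). PDR12 lay above the no-addition samples with valine and below them with ammonium, at 10.19, 9.88 and 10.38, and the direct difference was 1.76 ± 0.11. Several targets of nitrogen catabolite repression were lower with ammonium than with valine. DUR3 was at 11.82, 13.20 and 11.86 with ammonium (direct difference 1.73 ± 0.26), PUT4 at 9.66, 10.81 and 9.08 (1.70 ± 0.28) and DAL5 at 12.00, 12.48 and 11.67 (1.51 ± 0.18). GAP1 was at 13.81, 14.45 and 13.80, with a direct difference of 0.62 ± 0.14 (adjusted p = 0.00758 in limma).

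Of the 32 repression targets 11 were higher with valine than with ammonium and 6 lower, against 8.79% and 7.59% of all features. DAL4 (-0.99 ± 0.28) and DAL2 (-0.89 ± 0.18) were among the lower ones, with DAL4 at 8.72, 10.23 and 8.73 in the ammonium samples. The 2 glutamate dehydrogenases parted: GDH2 was at 10.53, 10.53 and 10.49 with ammonium, a direct difference of 2.31 ± 0.09, while GDH1 was at 12.52, 12.07 and 12.55, a direct difference of -1.15 ± 0.11. The glutamine synthetase GLN1 was higher with valine (0.52 ± 0.11). GIT1 was at 9.20, 8.03 and 8.87 with ammonium (2.32 ± 0.22). Ammonium sample 2 lay nearer to the no-addition samples than ammonium 1 and 3 did in DUR3, PUT4, DAL4 and DAL2. Without it the direct differences were 2.18 for DUR3, 2.18 for PUT4, -0.48 for DAL4 and -0.57 for DAL2, and all 4 remained called. The DAL4 call ended without valine sample 1 or 2 (limma adjusted p = 0.0798 and 0.0977).

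Lower with valine than with ammonium were the vitamin B6 genes SNZ2 (-1.62 ± 0.11) and SNZ3 (-1.62 ± 0.12), the mannoprotein HPF1 (-0.93 ± 0.16), AAD14 (-0.85 ± 0.12), THI74 (-0.82 ± 0.08), the repressor MOT3 (-0.81 ± 0.17) and ECM13 (-0.80 ± 0.26). SNZ2 was at 7.01 ± 0.17 (SD, n = 4) without addition, 8.72 ± 0.19 (n = 3) with valine and 10.35 ± 0.13 (n = 3) with ammonium. The call of ECM13 ended without any 1 of the 3 valine samples or without ammonium sample 1 or 2 (limma adjusted p = 0.0849 to 0.179). By list, 19 of 24 PAU genes, 45 of 134 ribosomal protein genes, 19 of 53 mitochondrial ribosomal protein genes and 9 of 20 thiamine genes were lower with valine than with ammonium. Their median direct differences were -0.39, -0.20, -0.18 and -0.44. Over all features the direct test called 7.59% lower with valine and 8.79% higher. Higher with valine were 11 of 20 amino acid permeases, 8 of 12 vacuolar and peptide transporters, 8 of 27 autophagy genes and 6 of 8 arginine genes. In the branched-chain synthesis list 4 of 13 genes were higher with valine, with a median direct difference of 0.07. The respiratory chain (median -0.04) and general stress genes (median 0.01) had direct differences close to that of all features (-0.01).

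**Figure D5:**
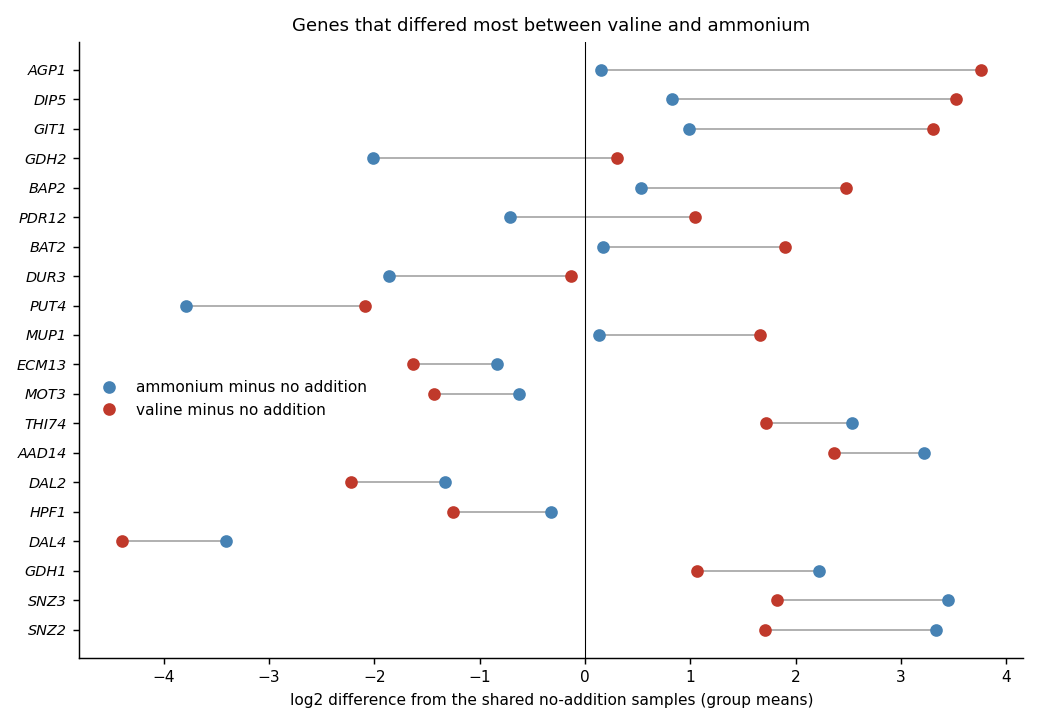
For the 20 named genes with the largest valine minus ammonium differences among called genes without overlap, red points give the difference of valine and blue points that of ammonium from the 4 shared no-addition samples, in log2 units. The gap between the points is the direct difference, from 3.60 for AGP1 to -1.62 for SNZ2 and SNZ3.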

How the data were processed

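The authors deposited log2 intensities per probe from 1-colour Cy3 arrays, and the scale was read from the values, since array minima lay between 5.50 and 5.56, medians between 9.09 and 9.10 and maxima between 15.82 and 15.96. R 2.13.1 and limma are listed in the submitters' processing notes. Background correction, normalization method and detection flags are not stated in the labels or files used here; how values near either end of the scale were affected is not known. Precision is limited by the number of arrays. Of 6271 probes, 5220 had 1 gene symbol in the platform annotation and 1051 none. Names were updated for 51 and left as given for 2 that matched no current gene. Averaging per gene left 6248 features, with no filter on intensity.

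All 14 grouped samples, the batch stationary-phase samples included, entered a single moderated linear model (lmFit and eBayes of limma 3.58.1 under R 4.3.3), tested on both sides with 10 residual degrees of freedom, after the 2 arrays of ammonium sample 3 had been averaged. A further sample, labelled ammonium in 2 fields and valine in 2, entered no comparison. The members, the 66 gene lists and the tests were chosen with earlier results of these data known. Lists are described by counts and medians, with no test. Genes named were the 15 with the largest difference in each direction among called genes without overlap; of each list the 4 highest and 4 lowest, all members of lists of up to 10, members making up a count of 5 or fewer calls in 1 direction, and the 4 of smallest difference where some were not called; a panel of 35; and the 10 that differed most from ammonium each way. Not every gene the rule allows is printed. Figures used Python 3.11.15 and matplotlib 3.10.9. Alternatives were renewed quantile normalization, median centring, array weights, slide or replicate number as a block, each slide alone, the 2 groups alone, 1 row per probe, the dimmest 25% of genes left out, trended robust moderation and leaving out each sample.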

Additional observations from a re-analysis of the deposited data

Results flagged for a closer look

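In 34 of the genes named in the report, 1 of the 4 no-addition samples lay apart from the other 3, with a gap to its nearest neighbour above the 95% critical value of Dixon's test for the range of the group. Chance alone marks out about 1 in 20 groups, and over all 6248 features 429 (6.87%) met the same criterion. No-addition sample 1 was the highest of its group in LYS5 (9.62), MAL11 (6.05), MRPS16 (11.94), PBI2 (13.34), PGM2 (13.22) and RPS30B (10.32). No-addition sample 1 was the lowest of its group in FAS1 (13.78), IDP1 (10.46) and MUP3 (9.68). No-addition sample 2 was the highest of its group in SSY1 (9.50). No-addition sample 2 was the lowest of its group in GPD1 (13.71) and MMP1 (6.05). No-addition sample 3 was the highest of its group in FMP45 (10.44), OLE1 (15.66) and PMA2 (11.84). No-addition sample 3 was the lowest of its group in DHR2 (7.75), RPS27A (10.79) and UTP21 (7.77). No-addition sample 4 was the highest of its group in AAT2 (11.99), ADE3 (12.19), CPS1 (11.90), MET10 (9.72), MET14 (9.69), PDC5 (13.13), PET18 (10.48) and PHO3 (9.00). It was also apart in SNZ1 (9.12), SNZ2 (7.27), SSA2 (8.89), THI11 (9.72), THI12 (10.61), THI13 (8.57), THI22 (9.57) and THI5 (10.80). Values are log2 intensities. Of the 429 features, no-addition sample 1 stood apart in 166, sample 2 in 71, sample 3 in 143 and sample 4 in 49.

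The sample that the labels give to both supplements lay above every no-addition sample in 15 of the 15 genes with the largest rise under valine. Those genes were chosen for their rise. In 14 of them every ammonium sample also lay above every no-addition sample, and the sample was nearer to the ammonium mean in 13 and to the valine mean in 2.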

How the results depend on the processing

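For valine minus no addition, 0 features called both in the fit of all groups and under an alternative had opposite signs. Of the 4242 calls, called or not in the alternative, 4240 kept their sign within slide 1 and 4236 within slide 2, all 4242 did so in the other fits per gene that kept every gene, and all 3546 still measured did so with the dimmest genes left out. The number called, 4242, was 2749 within slide 1, where 1 no-addition sample stood against 2 valine samples, with 1330 higher and 1419 lower. Under every other alternative it stayed within 1.5 times, from 3488 within slide 2 to 4646 with array weights. With the replicate number as a block it was 4078. Deviations of same-numbered samples from their group means correlated at -0.0877, 0.17 and -0.266 over genes. Those of differently numbered samples correlated at -0.274 to 0.236. With so few samples these values cannot decide whether equal numbers pair the samples. Leaving out 1 sample gave 3927 to 4136 calls, 1861 to 1978 higher and 2066 to 2162 lower, and leaving out valine sample 3 with no-addition sample 4, which was added once the data had been seen, gave 3976. For valine minus ammonium the count of 1023 was 2471 with array weights, 38 within slide 1, 228 within slide 2, 686 with slide as a block, 708 with the replicate block and 501 to 1115 without 1 sample. The reasons for these shifts were not tested, but slides alone hold fewer samples. Of the genes named, RPS30B (-0.46) was at 0.048 within slide 2. The median of vacuolar amino acid and peptide transport (-0.05) was 0.005 within slide 2, that of the Ehrlich pathway (-0.07) 0.030 within slide 1, and that of the iron regulon (-0.02) 0.030 with the dimmest genes left out, and from -0.033 to 0.012 when 1 sample was left out, being 0.012 without valine sample 1 and 0.000 without no-addition sample 1. Without detection flags, signal near the floor of the array limits what can be said of dim genes, those of meiosis and mating and the 25 named in the report included.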

Other observations

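Some genes outside the lists had differences as large as those inside them. They were chosen after their values were seen, and adjusted p values are from limma. HUG1, which is induced by DNA damage and replication stress, differed by 2.70 ± 0.13 (adjusted p = 2.9e-10), SAM4, which forms methionine from S-adenosylmethionine and homocysteine, by 2.48 ± 0.08 (1.27e-11), and YCT1, a cysteine transporter, by 2.37 ± 0.13 (1.48e-09). DYS1, the deoxyhypusine synthase that modifies eIF5A, differed by 2.32 ± 0.07 (1.27e-11) and KAR2, the chaperone of the endoplasmic reticulum, by 1.36 ± 0.08 (1.38e-09). In the other direction the acetyltransferase HPA2 differed by -2.72 ± 0.07 (4.93e-12) and NCE102, a protein of eisosomes in the plasma membrane, by -2.33 ± 0.21 (1.55e-07). In these 7 genes the 3 valine samples did not overlap the 4 no-addition samples.

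One sample carries labels of both supplements and was put in no group, and its values were not used to assign it. In each of 10 genes, chosen after values were seen, its log2 intensity lay nearer to the ammonium mean than to the valine mean. It was 10.70 for AGP1 (ammonium mean 10.63, valine mean 14.23), 10.47 for DIP5 (10.68 and 13.38), 8.45 for BAP2 (7.97 and 9.92), 11.16 for BAT2 (11.42 and 13.14) and 9.80 for PDR12 (10.15 and 11.91). It was 10.38 for GDH2 (10.52 and 12.83), 12.50 for GDH1 (12.38 and 11.23), 10.16 for SNZ2 (10.35 and 8.72), 14.16 for THI11 (13.80 and 13.12) and 6.87 for HXT5 (6.84 and 7.56).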
